A study of Mus musculus with 17 samples.

Results

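Trf, Tfrc, Fth1, Ftl1, Hmox1 and Steap4 encode proteins that carry, take up and store iron or break down heme. They were selected by name, and all 6 had a row among the 10207 gene rows of the count table. Of these, 5 passed the filter on low counts that left 7518 genes for testing, and Tfrc did not. Gene expression was read from 3'-end mRNA libraries of sorted myeloid cells of female BALB/c mice. Tumor-associated macrophages (TAM, 3 libraries) were CD11b+ Gr- F4/80+ cells of mammary tumors that grew from 100000 injected 4T1-luc cells, a mouse mammary carcinoma line with luciferase, and tumors were taken at 1 cm. Marrow cells of the tumor-bearing mice (BMDM_T, 4 libraries) and of healthy mice without injection (BMDM_H, 4 libraries) were sorted as CD11b+ Gr+ F4/80low and are labelled as monocytes. The labels give 8 weeks of age for TAM and BMDM_T and 12 weeks for BMDM_H, so tumor and label age cannot be told apart between the marrow groups. Tumor tissue went through collagenase and DNase, whereas marrow was flushed from bone and its red cells were lysed, so tissue, gate and digestion cannot be told apart between TAM and marrow.

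Iron travels in blood bound to transferrin (Trf), which cells take up through the transferrin receptor (Tfrc), and metalloreductases such as Steap4 reduce iron so that it can be transported. Surplus iron is stored in ferritin, a shell of heavy (Fth1) and light (Ftl1) subunits of which the heavy one oxidizes iron. Macrophages recycle iron from engulfed red cells through heme oxygenase (Hmox1), which releases iron from heme. Iron regulatory proteins bind a hairpin, the iron-responsive element, when iron is scarce, which blocks translation of ferritin mRNA and stabilizes Tfrc mRNA.

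That hairpin is shown because it is the regulatory sequence shared by members of this set. The search asked for a C, 5 bases, a 6-base loop of CAGTG and any base but G, and 5 bases that pair with the first 5 (G-T pairs allowed), on the sense strand of the longest protein-coding transcript of each gene in the GENCODE annotation of mm10. It was found in the UTRs of 108 of 21877 genes (0.494%). Among 81 searched genes of iron and heme handling, 6 held it, namely Fth1, Ftl1, Tfrc, the iron exporter gene Slc40a1, the heme synthesis gene Alas2 and the iron-sulfur cluster gene Bola3. Capitals mark the loop, and the 30 bases are given 5′ to 3′ with T for U.
Fth1, 5′ UTR, chr19:9982732-9982761, plus strand: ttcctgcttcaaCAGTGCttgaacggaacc
Ftl1, 5′ UTR, chr7:45459778-45459807, minus strand: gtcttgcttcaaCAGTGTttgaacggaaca
Slc40a1, 5′ UTR, chr1:45925464-45925493, minus strand: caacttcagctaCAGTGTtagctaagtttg
Tfrc, 3′ UTR, chr16:32631219-32631248, plus strand: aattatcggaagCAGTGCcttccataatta
Tfrc, 3′ UTR, chr16:32631598-32631627, plus strand: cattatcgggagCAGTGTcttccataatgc
Tfrc, 3′ UTR, chr16:32631663-32631692, plus strand: ctatatcggagaCAGTGAtctccatatgtt
Tfrc, 3′ UTR, chr16:32631710-32631739, plus strand: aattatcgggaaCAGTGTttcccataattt
Fth1 and Ftl1 each held 1 such hairpin ahead of the coding sequence, whereas the 4 found in Tfrc lay behind it. Counts of mRNA do not read translation, so the data below do not show whether these hairpins were bound.

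Total counts ran from 1748338 to 3747929 in TAM, 931278 to 1218977 in BMDM_T and 387940 to 1286844 in BMDM_H, where replicates 3 and 4 had the lowest totals. Levels are given as CPM, the count of a gene relative to the library total after scaling with TMM factors. Summed over 9 of 10 listed macrophage genes with a row, TAM had 59880 to 73970 CPM, against 2152 to 2702 CPM in BMDM_T and 2775 to 3755 CPM in BMDM_H. The 12 neutrophil granule genes summed to 368 to 598 CPM in TAM, against 171000 to 206200 CPM in BMDM_T and 141400 to 215000 CPM in BMDM_H, and 6 monocyte genes to 1340 to 1774, 1227 to 1830 and 2014 to 3560 CPM. Of these 6, 4 were higher and 2 lower in TAM than in BMDM_T (edgeR adjusted p under 0.05), beside 30.1% and 28.7% of all genes tested. Fn1 had 984 CPM in TAM against 141 CPM in BMDM_T, and Ly6c2 had 7.0 against 1037 CPM. Ly6c2 needed marrow libraries to pass the filter on low counts, so its direction was not free. The marrow libraries, although labelled as monocytes, were thus dominated by neutrophil transcripts, and in bulk RNA fewer cells of a type and less RNA per cell cannot be told apart. In edgeR's quasi-likelihood test with Benjamini-Hochberg adjustment, calls are genes with an adjusted p under 0.05.

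Transferrin transcripts were an order of magnitude higher in tumor macrophages than in marrow cells, and heavy-chain ferritin was several-fold higher, while light-chain ferritin did not pass the test. Heme oxygenase was higher in TAM than in BMDM_T, and Steap4 was nearly absent from TAM. Between the marrow groups Steap4 alone among the members passed, and it was about an order of magnitude higher in tumor-bearing mice. For TAM against BMDM_T 4 of the 5 tested members were called, 3 higher and 1 lower, where 58.9% of all genes tested were called (30.1% higher and 28.7% lower). For TAM against BMDM_H 3 of 5 were called, where 56.3% of all genes were called (28% higher and 28.3% lower). In both TAM comparisons the lower call was Steap4, which passed the filter on low counts only through marrow, so its direction was fixed. For BMDM_T against BMDM_H 1 of 5 was called, where 4.82% of all genes were called (2.82% higher). The TAM comparisons share their TAM libraries, and each marrow group enters a pair of comparisons, so the 3 results for a gene are not independent.

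**Figure D1:**
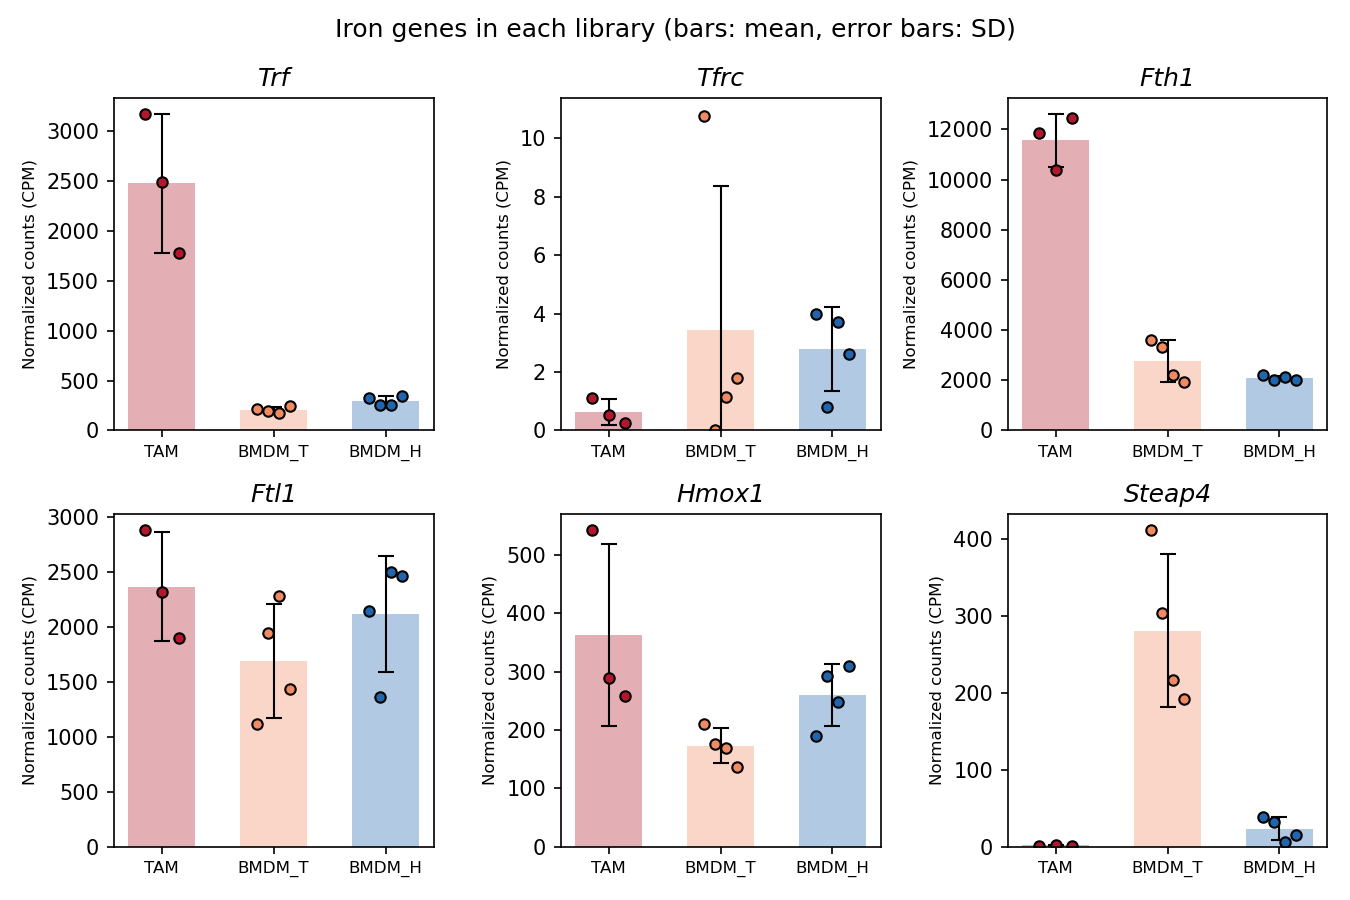
Normalized counts (CPM, linear axes from 0) of the 6 iron genes in TAM, BMDM_T and BMDM_H; points are libraries, bars means and error bars SD. Trf and Fth1 are highest in all 3 TAM libraries, Steap4 is highest in all 4 BMDM_T libraries, and Ftl1 overlaps between all groups.

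Trf encodes transferrin, the carrier of iron in plasma, which is made mainly by the liver. It lies on chromosome 9 (103204001 to 103230444, minus strand, mm10), where another annotated protein-coding gene, Gm20425, overlaps it on the same strand and has no row in the count table. Trf had 3173, 2488 and 1778 CPM in TAM replicates 1 to 3, against 219, 198, 174 and 240 CPM in BMDM_T replicates 1 to 4 and 321, 249, 249 and 346 CPM in BMDM_H replicates 1 to 4. All 3 TAM libraries lay above all marrow libraries. The mean was 2480 ± 697 CPM in TAM (SD, n = 3), against 208 ± 28.1 CPM in BMDM_T and 291 ± 49.7 CPM in BMDM_H (SD, n = 4 each). Trf was 11.9-fold higher in TAM than in BMDM_T (log2 fold change 3.58 ± 0.21 SE, edgeR adjusted p = 1.49e-11). Against BMDM_H it was 8.54-fold higher in TAM (3.09 ± 0.21 SE, edgeR adjusted p = 1.27e-10). The BMDM_T libraries, at 174 to 240 CPM, all lay below those of BMDM_H, at 249 to 346 CPM, but the difference did not pass over all genes (log2 fold change -0.48, 95% interval -0.89 to -0.08, edgeR adjusted p = 0.179).

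Summed markers of tumor epithelium and endothelium moved with the higher Trf and Fth1 of TAM, though not every gene of these lists did. The 7 of 8 mammary epithelial genes with a row summed to 66.7 to 103 CPM in TAM, against 12.9 to 35.8 CPM in BMDM_T and 20.7 to 62.5 CPM in BMDM_H, with none at 0 over a group. The 3 of 4 endothelial genes with a row summed to 57.8 to 92.2 CPM in TAM, against 23.1 to 41.2 CPM in BMDM_T and 13.0 to 27.4 CPM in BMDM_H. Krt18, at 51.9 CPM in TAM, 11.2 in BMDM_T and 24.4 in BMDM_H, and Pecam1, at 62.2, 23.4 and 11.6 CPM, made up most of these TAM sums. Epcam, at 1.94, 2.31 and 2.83 CPM, and Egfl7, at 1.37, 6.01 and 7.62 CPM, were lowest in TAM. The sums of the 3 of 6 fibroblast genes with a row overlapped between all groups, at 5.69 to 24.4 CPM in TAM, against 0 to 13.5 CPM in BMDM_T and 0 to 41.6 CPM in BMDM_H, where Col3a1 was at 0. No listed adipocyte gene had a row. The part of such cells in the Trf and Fth1 results was not tested.

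Tfrc, the receptor through which cells import transferrin-bound iron, was barely counted. Libraries that read the 3' end depend on the transcript end in the annotation, which was not given for these counts, so a low count is not shown to be a low level. It lies on chromosome 16 (32608920 to 32632794, plus strand, mm10). Tfrc had 2, 1 and 1 counts in the TAM libraries, against 10, 0, 1 and 2 counts in BMDM_T replicates 1 to 4 and 5, 1, 2 and 1 counts in BMDM_H replicates 1 to 4. Only BMDM_T replicate 1 reached 10 counts. Over each group this was 0.551 CPM of the unscaled totals in TAM (95% exact Poisson interval 0.15 to 1.41), 2.99 in BMDM_T (1.59 to 5.12) and 2.68 in BMDM_H (1.23 to 5.09), and these intervals cover counting error only. Without the filter on low counts Tfrc was lower in TAM than in BMDM_T (log2 fold change -2.43 ± 1.05 SE, edgeR adjusted p = 0.0401), although 10 of the 13 BMDM_T counts came from replicate 1. Against BMDM_H the same fit gave an adjusted p = 0.0981 (edgeR), and between the marrow groups 0.924. Summed proliferation genes, 10 of 12 with a row, moved with this difference, at 484 to 534 CPM in TAM, 1205 to 1593 CPM in BMDM_T and 1179 to 1519 CPM in BMDM_H. Pcna among them went the other way, at 60.3 CPM in TAM, 44.6 in BMDM_T and 42.3 in BMDM_H. The part of proliferation was not tested.

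Steap4 encodes a metalloreductase of the plasma membrane and endosomes that reduces iron and copper. It lies on chromosome 5 (7960457 to 7982213, plus strand, mm10). Steap4 had 2, 4 and 4 counts in the TAM libraries (1.11, 2.12 and 1.03 CPM), against 382, 361, 188 and 212 counts in BMDM_T replicates 1 to 4 (411, 303, 217 and 191 CPM) and 48, 40, 3 and 6 counts in BMDM_H replicates 1 to 4 (38.2, 32.2, 5.58 and 15.6 CPM). No 2 groups overlapped, with BMDM_T highest, BMDM_H between and TAM lowest. The mean was 281 ± 99.4 CPM in BMDM_T against 22.9 ± 14.98 CPM in BMDM_H (SD, n = 4 each), a 10.5-fold rise (log2 fold change 3.40 ± 0.31 SE, edgeR adjusted p = 7.14e-07). Without BMDM_H replicates 3 and 4, which had the lowest totals and the lowest Steap4 levels of the group, the log2 fold change was 2.99 (edgeR adjusted p = 3.5e-05). In TAM Steap4 averaged 1.42 ± 0.61 CPM (SD, n = 3) and was lower than in BMDM_T by 7.62 ± 0.47 SE on the log2 scale (edgeR adjusted p = 2.4e-11). It was lower than in BMDM_H by 4.22 ± 0.57 SE on that scale (edgeR adjusted p = 2.2e-06). Steap4 passed the filter on low counts only through marrow, which fixed its direction in both TAM comparisons. With so few TAM counts the size is uncertain, and after thinning all libraries to the lowest total the fitted log2 fold changes were -9.75 against BMDM_T and -6.33 against BMDM_H, sizes that depend on the prior count.

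Granule genes moved with Steap4 in marrow. The 5 azurophil granule genes with a row summed to 6525 to 9401 CPM in BMDM_T and 1744 to 2553 CPM in BMDM_H, while the sums of the 12 neutrophil granule genes overlapped. In TAM the 5 azurophil genes summed to 26.4 to 32.9 CPM. The part of cell composition in the Steap4 difference was not tested.

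The promoters of Steap4 and Fth1, the members with the clearest change in marrow and the clearest change in ferritin, are printed as the 250 bases before the RefSeq transcript start (GRCm38.p6, the build called mm10). Capitals mark the letters TATAA of a TATA box, the box named CCAAT after its letters, and the motif TTGCNNAA (letters bound by C/EBP factors of myeloid cells) on either strand, none of which overlapped another, and TGACNNNGC (the core of an antioxidant response element) was searched as well. The letters were chosen with the windows in view, and 4 of the 6 genes had an entry in the promoter table. Fth1 has 2 entries there, of which the one nearer to its iron-responsive element is printed.
Steap4, chr5:7960222-7960471, plus strand: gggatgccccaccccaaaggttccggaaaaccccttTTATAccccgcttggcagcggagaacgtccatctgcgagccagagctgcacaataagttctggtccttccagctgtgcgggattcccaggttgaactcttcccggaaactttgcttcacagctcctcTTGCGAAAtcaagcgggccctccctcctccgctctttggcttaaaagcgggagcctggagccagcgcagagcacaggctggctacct
Fth1, chr19:9982396-9982645, plus strand: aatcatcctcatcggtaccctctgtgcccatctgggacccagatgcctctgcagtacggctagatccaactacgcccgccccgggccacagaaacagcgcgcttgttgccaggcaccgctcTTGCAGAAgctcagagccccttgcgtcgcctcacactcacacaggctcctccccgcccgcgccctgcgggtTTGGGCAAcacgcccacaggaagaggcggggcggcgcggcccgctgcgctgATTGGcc
Counted from the first base of the match to the start, the Steap4 window held TTGCNNAA 87 bases upstream on the plus strand and TATAA 214 bases upstream on the minus strand. The Fth1 window held TTGCNNAA at 129 bases on the plus and 58 bases on the minus strand, and CCAAT at 7 bases on the minus strand. Of 32851 promoter windows in the table, 9.56% held TTGCNNAA, 22.8% TATAA, 33.8% CCAAT and 10.2% TGACNNNGC, which neither printed window held. These matches are letters in a window and not sites shown to be bound.

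Fth1 encodes the heavy ferritin subunit, which carries the ferroxidase activity. It lies on chromosome 19 (9980598 to 9985098, plus strand, mm10), and its iron-responsive element is the first hairpin printed above. Fth1 had 11870, 10400 and 12440 CPM in TAM replicates 1 to 3, against 3602, 3339, 2217 and 1917 CPM in BMDM_T replicates 1 to 4 and 2186, 2021, 2137 and 1996 CPM in BMDM_H replicates 1 to 4. TAM stood apart from both marrow groups, and BMDM_T spread more widely than BMDM_H, with replicates 1, 2 and 3 above all BMDM_H libraries and replicate 4 below them. The mean was 11570 ± 1054 CPM in TAM (SD, n = 3), against 2769 ± 827 CPM in BMDM_T and 2085 ± 91.2 CPM in BMDM_H (SD, n = 4 each). Fth1 was 4.18-fold higher in TAM than in BMDM_T (log2 fold change 2.06 ± 0.21 SE, edgeR adjusted p = 3.69e-08) and 5.55-fold higher than in BMDM_H (2.47 ± 0.21 SE, edgeR adjusted p = 3.71e-09). Between BMDM_T and BMDM_H it did not pass (log2 fold change 0.41, 95% interval 0.01 to 0.81, edgeR adjusted p = 0.265).

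Ftl1 encodes the light subunit, which helps iron to mineralize inside the shell. It lies on chromosome 7 (45457944 to 45459884, minus strand, mm10), where an opposite-strand gene and a small RNA gene without rows in the table overlap it. Ftl1 had 2880, 2317 and 1894 CPM in TAM replicates 1 to 3, against 1115, 1939, 2281 and 1433 CPM in BMDM_T replicates 1 to 4 and 2146, 1358, 2501 and 2464 CPM in BMDM_H replicates 1 to 4. All 3 groups overlapped. No comparison passed, with a log2 fold change of 0.48 (95% interval -0.02 to 0.99, edgeR adjusted p = 0.0938) for TAM against BMDM_T and 0.16 (-0.35 to 0.67, edgeR adjusted p = 0.595) for TAM against BMDM_H. For BMDM_T against BMDM_H it was -0.32 (-0.79 to 0.15, edgeR adjusted p = 0.518). The first of these passed with total counts as the only scaling (log2 fold change 0.63, edgeR adjusted p = 0.0249) and without BMDM_T replicate 3 (0.64, edgeR adjusted p = 0.0369). The annotation names 3 copies of Ftl1 and 11 genes and pseudogenes named after the heavy chain elsewhere in the genome, of which none has a row here, so how reads shared with such copies were counted is not known.

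Because a ratio within a library does not depend on library scaling, the count of Fth1 was divided by that of Ftl1. The ratio was 4.12, 4.49 and 6.57 in TAM replicates 1 to 3, against 3.23, 1.72, 0.972 and 1.34 in BMDM_T replicates 1 to 4 and 1.02, 1.49, 0.854 and 0.81 in BMDM_H replicates 1 to 4. Every TAM library lay above every marrow library, and BMDM_T replicate 1 came closest to TAM. On the log2 scale the mean was 2.31 ± 0.36 in TAM (SD, n = 3), 0.71 ± 0.73 in BMDM_T and 0.02 ± 0.40 in BMDM_H (SD, n = 4 each). TAM exceeded BMDM_T by 1.60 and BMDM_H by 2.29 on the log2 scale (exact permutation test, two-sided p = 0.0571 each, the smallest p that 3 against 4 libraries allow). BMDM_T exceeded BMDM_H by 0.70 (exact permutation test, two-sided p = 0.143, where 0.0286 is the smallest possible), and without BMDM_T replicate 1 by 0.37. These values show unequal change of the 2 transcripts and say nothing of the protein shell.

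**Figure D2:**
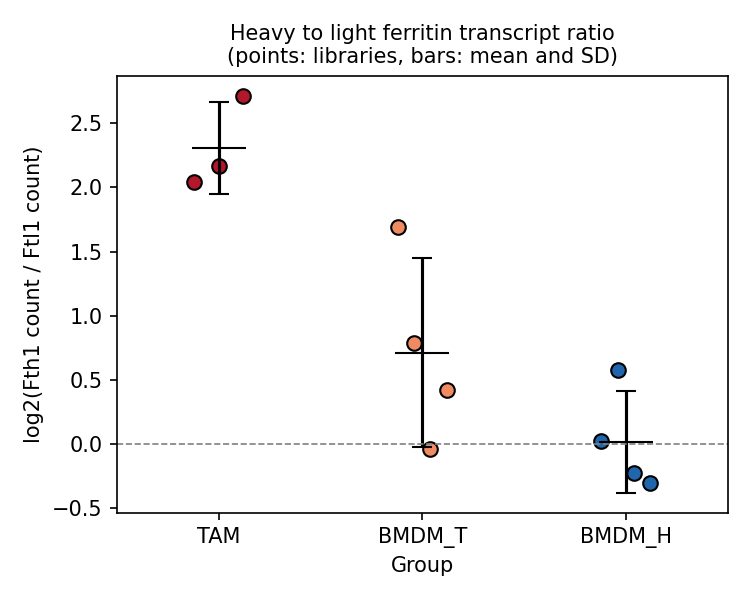
The log2 ratio of Fth1 to Ftl1 counts in each library (points) with the mean and SD of TAM, BMDM_T and BMDM_H; the dashed line marks equal counts. The TAM libraries lie between 2.04 and 2.72, above BMDM_T (-0.04 to 1.69) and BMDM_H (-0.30 to 0.57).

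Hmox1 encodes the inducible heme oxygenase, which opens the heme ring and frees its iron. It lies on chromosome 8 (75093621 to 75100589, plus strand, mm10). Hmox1 had 543, 289 and 258 CPM in TAM replicates 1 to 3, against 211, 176, 170 and 136 CPM in BMDM_T replicates 1 to 4 and 190, 293, 247 and 310 CPM in BMDM_H replicates 1 to 4. TAM replicate 1 lay far above the other TAM libraries, and while TAM did not overlap BMDM_T, it overlapped BMDM_H. The mean was 363 ± 157 CPM in TAM (SD, n = 3), against 173 ± 30.7 CPM in BMDM_T and 260 ± 53.5 CPM in BMDM_H (SD, n = 4 each). Hmox1 was 2.09-fold higher in TAM than in BMDM_T (log2 fold change 1.07 ± 0.23 SE, edgeR adjusted p = 0.000575), and without TAM replicate 1 the log2 fold change was 0.65 (edgeR adjusted p = 0.0108). Against BMDM_H it did not pass (log2 fold change 0.49, 95% interval 0.00 to 0.98, edgeR adjusted p = 0.0813). That value was 0.08 without TAM replicate 1 (edgeR adjusted p = 0.762), 0.62 without TAM replicate 2 (edgeR adjusted p = 0.0486) and 0.68 without TAM replicate 3 (edgeR adjusted p = 0.02). BMDM_T and BMDM_H differed by -0.58 (95% interval -1.05 to -0.11, edgeR adjusted p = 0.167).

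Markers of marrow-resident macrophages and red cell precursors moved with the Hmox1 values in marrow. The 8 resident macrophage genes summed to 29.1 to 83.1 CPM in BMDM_T and 173 to 377 CPM in BMDM_H, and in TAM to 566 to 582 CPM. Axl made up most of the TAM sum, at 368 CPM in TAM, 13.3 in BMDM_T and 35.2 in BMDM_H, while Cd5l had 0.698 CPM in TAM, 8.54 in BMDM_T and 41.0 in BMDM_H. Of 6 tested genes of that list 2 were higher and 2 lower in TAM than in BMDM_H, beside 28% and 28.3% of all genes tested. Siglec1, 1 of the 2 higher, passed the filter on low counts only through TAM. Cd5l, 1 of the 2 lower, passed it only through marrow, so the filter fixed the direction of both. In BMDM_T 5 of the 6 were lower than in BMDM_H, beside 2% of all genes tested. The 10 of 16 red cell precursor genes with a row summed to 6.46 to 21.9 CPM in BMDM_T and 70.8 to 372 CPM in BMDM_H, with Kel and Cldn13 at 0 in BMDM_T. In TAM they summed to 11.1 to 16.6 CPM, with 6 of the 10 at 0. Ermap made up most of that TAM sum, at 10.4 CPM in TAM, 0.21 in BMDM_T and 16.7 in BMDM_H. The part of such cells in the Hmox1 values was not tested.

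**Figure D3:**
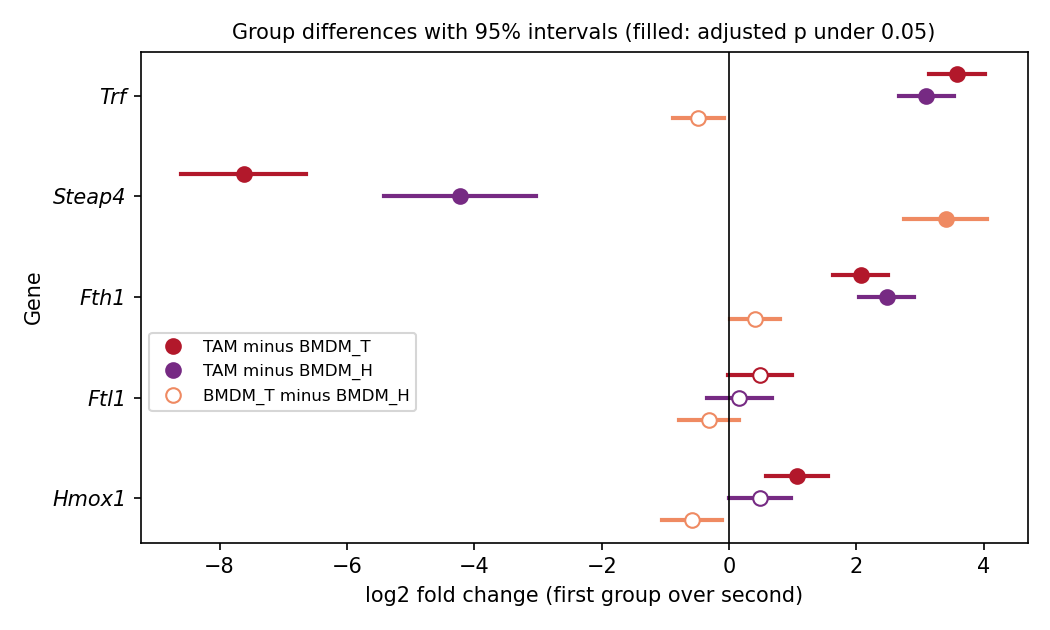
Log2 fold changes (first group over second) of the 5 tested members with 95% intervals in the 3 comparisons; filled points have an edgeR adjusted p under 0.05. Steap4 spans from -7.62 (TAM minus BMDM_T) to 3.40 (BMDM_T minus BMDM_H), while the 3 intervals of Ftl1 include 0.

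Other genes of iron and heme handling were taken from lists that hold 75 genes besides the members, of which 62 had a row and 52 were tested. For TAM against BMDM_T 24 were higher and 10 lower, 65.4% in all, beside 58.9% of all genes tested. The median log2 fold change was 0.44, beside 0.03 over all genes tested. For TAM against BMDM_H 19 were higher and 12 lower, 59.6% beside 56.3% of all genes, with medians of 0.19 and 0.02. In both TAM comparisons the higher genes Slc39a14, Cp, Slc46a1 and Maff passed the filter on low counts only through TAM. The lower genes Slc40a1 and Slc25a37 passed it only through marrow, so the filter fixed the direction of all of these. Isca1, higher in both, and Abcb6, higher against BMDM_H, also needed TAM libraries to pass it. Ppox, lower in both, needed marrow libraries, so the direction of these genes was not free either. For BMDM_T against BMDM_H 2 were higher and 4 lower, 11.5% beside 4.82%, with medians of -0.23 and -0.02. Alas2, called lower here and in TAM against BMDM_H, passed the filter only through BMDM_H, which fixed its direction. With total counts as the only scaling the median over all genes moved to 0.18 for TAM against BMDM_T and to -0.13 for BMDM_T against BMDM_H, and the calls between the marrow groups split into 155 higher and 218 lower in place of 212 and 150. Under that scaling 0 of the 52 genes were higher and 5 lower in BMDM_T. Without BMDM_H replicates 3 and 4 it was 0 and 2, and without BMDM_T replicate 1, BMDM_T replicate 3 or BMDM_H replicate 4 none of these genes was higher either.

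The iron uptake list holds importers, metalloreductases and proteins that bear on uptake in other ways. Each of its 5 tested genes other than Trf and Steap4 was higher in TAM than in BMDM_T, beside 30.1% of all genes tested. Their median log2 fold change was 2.13, whereas Steap4 of the same list fell. Slc39a14, with 1 to 3 counts in each marrow library, passed the filter on low counts only through TAM, which fixed its direction. Tfr2, Steap1, Steap3 and Slc39a8 had a row but did not pass the filter. Hfe, a membrane protein that binds the transferrin receptor, reached 90.4 CPM in TAM against 14.0 CPM in BMDM_T (2.67 ± 0.27 SE, edgeR adjusted p = 3.37e-08). Slc11a2, which carries iron across cell and endosome membranes, had 38.1 CPM in TAM against 8.55 CPM in BMDM_T (2.13 ± 0.27 SE, edgeR adjusted p = 1.03e-06). Slc11a1, the metal transporter of the phagosome, rose to 285 CPM in TAM against 119 CPM in BMDM_T (1.26 ± 0.18 SE, edgeR adjusted p = 3.61e-06). Against BMDM_H 4 of the 5 were higher in TAM, beside 28% of all genes tested, and between the marrow groups none of the 5 passed.

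Genes of iron export moved apart. Slc40a1, which encodes the only known cellular iron exporter, ferroportin, had 9 counts over TAM against 55 over BMDM_T and 61 over BMDM_H. It was lower in TAM than in BMDM_T (log2 fold change -3.49 ± 0.79 SE, edgeR adjusted p = 0.000626) and than in BMDM_H (-3.98 ± 0.78 SE, edgeR adjusted p = 0.000174). Cp, the copper ferroxidase ceruloplasmin that works with ferroportin, had 175 counts over TAM against 8 over each marrow group, and rose by 3.53 ± 0.48 SE on the log2 scale against BMDM_T (edgeR adjusted p = 2.05e-06). Aco1, the iron regulatory protein that doubles as cytosolic aconitase, rose in TAM to 51.5 CPM against 17.7 CPM in BMDM_T (1.55 ± 0.23 SE, edgeR adjusted p = 6.31e-06). Fbxl5, the iron-sensing ubiquitin ligase subunit that targets the other iron regulatory protein, fell to 30.6 CPM in TAM against 114 CPM in BMDM_T (-1.87 ± 0.21 SE, edgeR adjusted p = 1.49e-07). Ncoa4, the receptor that delivers ferritin to lysosomes, had 9, 7 and 3 counts over TAM, BMDM_T and BMDM_H. Its means were 0.974, 1.64 and 1.5 CPM, and it was not tested.

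Of 8 tested genes of heme breakdown and transport other than Hmox1, 5 were higher and 1 lower in TAM than in BMDM_T. This stands beside 30.1% and 28.7% of all genes tested. The list's median log2 fold change was 1.92. The biliverdin reductase genes Blvrb and Blvra, whose enzymes act on the product of heme oxygenase, had 163 and 160 CPM in TAM against 36.4 and 49.2 CPM in BMDM_T (2.14 ± 0.17 SE and 1.70 ± 0.20 SE, edgeR adjusted p = 1.45e-09 and 3.94e-07). Lrp1, a receptor for hemopexin-bound heme, rose to 539 CPM in TAM against 116 CPM in BMDM_T (2.21 ± 0.17 SE, edgeR adjusted p = 8.91e-10). Hp, which encodes haptoglobin, the hemoglobin-binding protein, fell to 27.4 CPM in TAM against 5274 CPM in BMDM_T (-7.60 ± 0.28 SE, edgeR adjusted p = 2.19e-14). Cd163, the scavenger receptor for hemoglobin bound to haptoglobin, had 165 counts over TAM, 9 over BMDM_T and 67 over BMDM_H. It was higher in TAM than in BMDM_T (3.48 ± 0.58 SE, edgeR adjusted p = 2.69e-05) and did not pass against BMDM_H (log2 fold change 0.35, edgeR adjusted p = 0.495), except without TAM replicate 3 (0.80, edgeR adjusted p = 0.0491).

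Of 13 tested genes of heme synthesis 1 was higher and 4 lower in TAM than in BMDM_T, where 30.1% of all genes tested were higher and 28.7% lower. Against BMDM_H 1 was higher and 5 lower in TAM, where 28% of all genes tested were higher and 28.3% lower. Among the lower ones, Alas2 passed the filter on low counts only through BMDM_H and Slc25a37 only through marrow, which fixed their direction. The higher one against BMDM_T, Urod, named after its value was seen, lost its call in 7 of 21 alternatives. The higher one against BMDM_H, Abcb6, named in the same way, lost its call in 6, with an adjusted p of 0.157 without TAM replicate 1 (edgeR) and 0.059 in DESeq2. Abcb6 also needed TAM libraries to pass the filter on low counts, so its direction was not free. A setting in which a gene was not tested was not counted as a lost call, and after thinning only 38 of the 52 genes were tested. The list's median log2 fold changes were -0.13 and -0.37, and 0.00 and -0.30 without Alas2, which had 0 counts in TAM. Alas1, the first enzyme of the pathway outside red cells, fell to 101.4 CPM in TAM against 311 CPM in BMDM_T (-1.61 ± 0.19 SE, edgeR adjusted p = 4.02e-07). The mitochondrial carriers Slc25a38 and Slc25a37 fell as well (-1.21 ± 0.23 SE and -2.28 ± 0.56 SE, edgeR adjusted p = 0.000138 and 0.00153). Of 13 iron-sulfur cluster genes 7 were higher and 0 lower in TAM than in BMDM_T, beside 30.1% and 28.7% of all genes tested. Their median log2 fold change was 0.58, and the smallest p-values were those of Bola3 (1.44 ± 0.20 SE, edgeR adjusted p = 3.74e-06), Hscb (1.23 ± 0.30 SE, edgeR adjusted p = 0.00149) and Nubp1 (0.74 ± 0.18 SE, edgeR adjusted p = 0.00155). Of the 7, Cisd2 lost its call in 15 of 21 alternatives, Nfs1 in 3 and Glrx5 in 2, and Iscu was called lower with a replicate block (-0.92, edgeR adjusted p = 0.0243) and without BMDM_T replicate 4 (-1.004, edgeR adjusted p = 0.0107). Against BMDM_H 4 were higher and 1 lower in TAM, beside 28% and 28.3% of all genes tested. Isca1, among the higher genes of both TAM comparisons, needed TAM libraries to pass the filter on low counts, so its direction was not free. The lower one, Nfu1, had an adjusted p = 0.00906 (edgeR) that became 0.0501 without TAM replicate 1. Of the 4 higher ones, Nubp1 lost its call in 5 of 21 alternatives and Hscb in 4, with a log2 fold change for Hscb of 0.66 with a replicate block (edgeR adjusted p = 0.0586) and 0.42 without TAM replicate 3 (edgeR adjusted p = 0.263).

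Among regulators of Hmox1 and ferritin transcription 4 of 5 tested genes were higher and 1 lower in TAM than in BMDM_T. The shares over all genes tested were 30.1% and 28.7%. Of the 4, Keap1 lost its call in 12 of 21 alternatives. Nfe2l2 encodes NRF2, an activator of Hmox1 and ferritin genes, and reached 109 CPM in TAM against 41.3 CPM in BMDM_T (1.39 ± 0.24 SE, edgeR adjusted p = 3.88e-05). The small Maf genes, whose proteins pair with NRF2 or with the heme-sensing repressor BACH1, moved in both directions. Maff had 559 counts over TAM against 11 over BMDM_T (4.75 ± 0.40 SE, edgeR adjusted p = 3.04e-09) and 1 over BMDM_H. Mafk rose (1.55 ± 0.24 SE, edgeR adjusted p = 1.12e-05) and Mafg fell (-1.02 ± 0.17 SE, edgeR adjusted p = 2.87e-05). Bach1 itself had 42, 21 and 17 counts over TAM, BMDM_T and BMDM_H, with means of 4.84, 5.16 and 6.9 CPM, and was not tested. The iron-binding proteins of neutrophil granules, lactoferrin (Ltf) and the siderophore binder Lcn2, had 21.3 and 16.5 CPM in TAM against 14390 and 9612 CPM in BMDM_T and 15140 and 8240 CPM in BMDM_H, and neither passed between the marrow groups (edgeR adjusted p = 0.877 and 0.636).

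**Figure D4:**
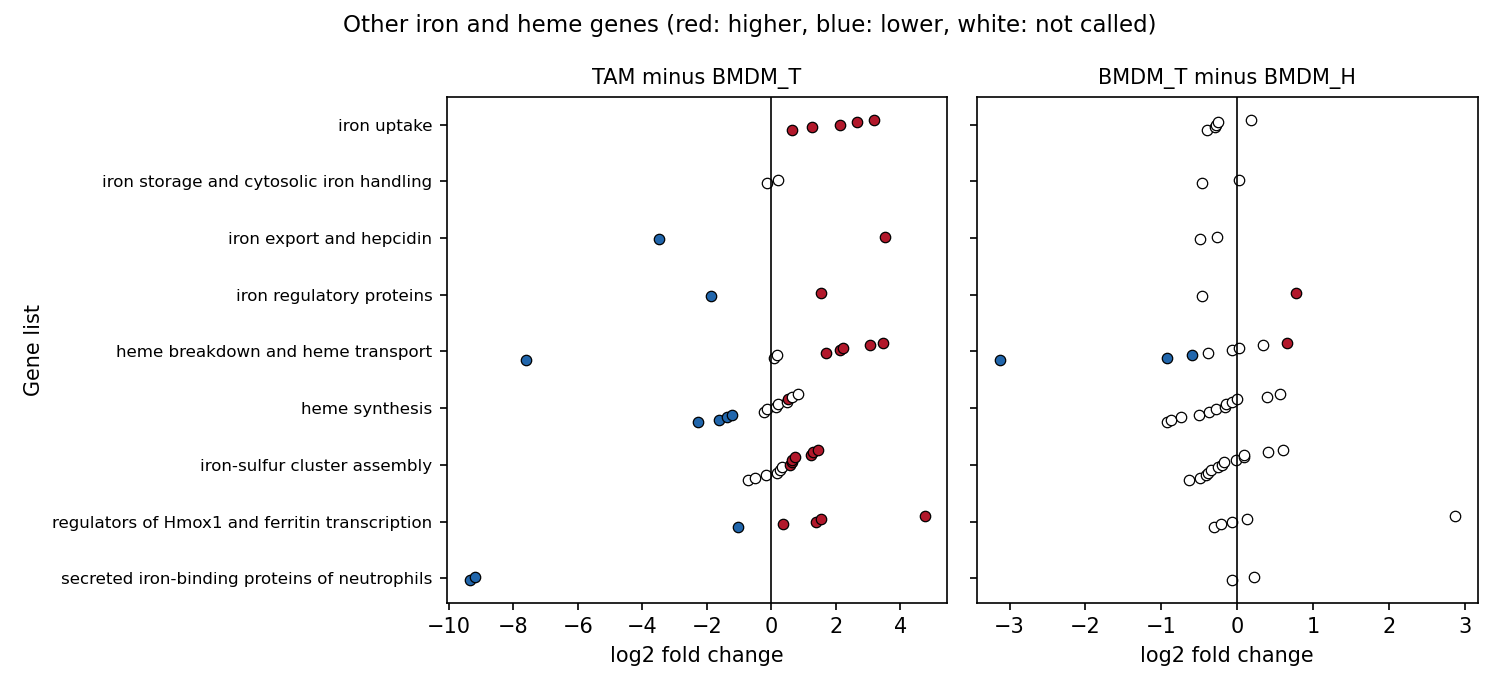
Log2 fold changes of the tested iron and heme genes other than the members, by list, for TAM minus BMDM_T (left) and BMDM_T minus BMDM_H (right, another axis range); each point is a gene, red higher, blue lower and white not called, and Alas2 is left out because of its 0 counts in TAM. The iron uptake genes other than the members lie right of 0 on the left panel, and most points of the right panel are white.

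Between the marrow groups the 6 calls among these 52 genes differed in how they held under other settings. Blvrb fell to 36.4 CPM in BMDM_T against 70.7 CPM in BMDM_H (-0.92 ± 0.18 SE, edgeR adjusted p = 0.00374) and kept its call in all 21 alternatives. Alas2, the heme synthesis enzyme of red cell precursors, had 1 count over BMDM_T against 42 over BMDM_H (edgeR adjusted p = 0.000785), and is itself 1 of the 10 red cell precursor genes summed above. Alas2 passed the filter on low counts only through BMDM_H, which fixed its direction. Cd163 fell (log2 fold change -3.13 ± 0.62 SE, edgeR adjusted p = 0.00346, and limma-voom adjusted p = 0.0622), and is itself 1 of the 8 resident macrophage genes summed above. Fbxl5 rose (0.78 ± 0.19 SE, edgeR adjusted p = 0.0197), but without any 1 of BMDM_T replicates 1, 2 and 3 and BMDM_H replicate 4 its adjusted p was 0.0506 to 0.0618. Hp rose (0.65 ± 0.18 SE, edgeR adjusted p = 0.0362), but without any 1 of BMDM_T replicates 1, 3 and 4 and BMDM_H replicates 1, 2 and 4 its adjusted p was 0.0551 to 0.118. Lrp1, named after its value was seen, fell (-0.60 ± 0.17 SE, edgeR adjusted p = 0.0449) and lost its call in 11 of the 21 alternatives, with adjusted p of 0.0694 to 0.175 without any 1 of BMDM_T replicates 1, 2 and 3, BMDM_H replicates 1, 2 and 4 and TAM replicate 2. With replicate numbers as a block 3 of the 52 genes were higher and 5 lower in BMDM_T. Among them Alas1 was called higher (0.58, edgeR adjusted p = 0.0323), as in 4 further alternatives, and Glrx5 lower (-0.64, edgeR adjusted p = 0.0425), as in 2 further ones.

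Across the 11 libraries, log2 CPM of Trf and Fth1 had a Pearson correlation of 0.92, Fth1 and Ftl1 0.27, and Trf and Steap4 -0.85. These values are a description over libraries that fall into separate groups. Of 3917 other genes with at least 30 CPM, those most like Trf were Gpr132 (r = 0.99), Runx3 (0.99) and Itgb5 (0.99), each highest in TAM. Those most like Fth1 were Tlr2 (0.99), Ccrl2 (0.99) and Slc15a3 (0.98), and for Ftl1 the closest were Rabggta (0.84), Mcoln1 (0.84) and Mrpl2 (0.81). Hmox1 was followed most closely by Dot1l (0.95), Phlda1 (0.94) and Meaf6 (0.86). Steap4 was followed by Selplg (0.97), Tnfsf14 (0.97) and Gclm (0.96), of which Tnfsf14 had 15.5 CPM in TAM, 139 CPM in BMDM_T and 48.1 CPM in BMDM_H.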

How the data were processed

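Counts per gene were deposited by the authors in 1 table, made with bcl2fastq, STAR 2.4.2a and HTSeq on mm10, per the submitters' processing notes. The handling of molecular identifiers, the strand setting, the annotation and any gene filter: not given in the sources used here. The 11 libraries of batch 1 were used. Over rows with a symbol, Spearman correlations with the 6 batch 2 libraries were -0.02 to 0 in 66 pairs, against 0.92 to 0.96 within batch 1 BMDM_H, so batch 2, which includes the mammary gland macrophages, is not analysed here.

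All 3 batch 1 groups entered 1 fit in edgeR 4.0.16 (R 4.3.3) (filterByExpr, TMM scaling, glmQLFit and glmQLFTest on dispersions from estimateDisp), which was tested on simulated data. Standard errors (SE) are the log2 fold change over the root of the F statistic, and intervals use its degrees of freedom. Alternatives used DESeq2 1.42.0 and limma-voom (limma 3.58.1). Members and lists were chosen with earlier results of these data known. The rule named all members, up to 3 called genes per list with the smallest p, a few fixed genes, and the 3 genes most correlated with each member.

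Replicates differed by more than sampling noise (chi-square per degree of freedom 2.67 to 14.6 in 15 pairs). No label ties a replicate to a mouse of its own, and p-values therefore cover only spread among these libraries, possibly technical. Same-numbered BMDM_T and BMDM_H libraries deviated together (r = 0.22, 0.24, 0.13 and 0.13 over genes, each above 0.1), which was taken as pairing in an alternative fit, although no label explains what a number stands for.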

Additional observations from a re-analysis of the deposited data

Results flagged for a closer look

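Tfrc in BMDM_T was marked because 1 library stood far from the others. Replicate 1 had 10.8 CPM (10 counts), against 0 to 1.8 CPM in the other BMDM_T libraries, and its gap to the nearest library was 0.832 of the group's range, above Dixon's critical value at the 95% level. Chance marks about 1 in 20 groups, and 14 groups were examined.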

How the results depend on the processing

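The 15 results of tested members were recomputed in 315 refits, and 309 kept direction and side of the threshold. The 3 ratio differences kept their sign in 39 refits, but for TAM their p could not reach 0.05, so nothing follows for the threshold. The exceptions were Ftl1 for TAM against BMDM_T, at 0.63 (log2) with total counts only and 0.30 to 0.64 with 1 library left out, Ftl1 for TAM against BMDM_H, at -0.02 to 0.30, and Hmox1 for TAM against BMDM_H, at 0.083 to 0.684. For Ftl1 the sign turned without BMDM_H replicate 2 and without TAM replicate 1. The cause was not tested. With replicate numbers as a block, BMDM_T against BMDM_H had 468 calls, against 362 without it, Steap4 had 3.57, and no call of a member changed. After thinning to the lowest total, calls numbered 2779 for TAM against BMDM_T (4426 at full depth), 2693 for TAM against BMDM_H (4230) and 228 for BMDM_T against BMDM_H, with fewer genes tested. Without BMDM_H replicates 3 and 4 the last had 179, and with 1 library left out 238 (BMDM_H replicate 2) to 409. Tfrc, with 26 counts in all libraries, is limited by depth and by the unknown transcript end used in counting.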
